A study of Rana pirica with 14 samples.

Results

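The comparison described here sets tail tissue of Rana pirica tadpoles kept with larval salamanders for 8 days (Salam, 3 arrays) against tail tissue of tadpoles kept without a predator for the same 8 days (Cont, 2 arrays). These 5 of the 14 arrays of the series were chosen by their titles alone, and the comparison runs over every probe set that is not for an added control transcript, 15491 of 15611. Salam tadpoles shared their aquaria with larvae of the salamander Hynobius retardatus, which were exchanged every day for others that had fed on tadpoles, and Cont tadpoles met no predator. All tadpoles were at a stage before hind limb growth and were sampled on day 8. The other 9 arrays, 3 each, are of tadpoles kept with a caged dragonfly larva for 8 days (Drago) and of tadpoles kept with either predator for 4 days and then alone for 4 days (−Salam and −Drago).

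Tadpoles of many frogs change the shape of their tail when a predator is near, a reversible form of phenotypic plasticity that costs the animal growth when no predator is there. Larval salamanders swallow their prey whole, and Rana pirica answers them with a swollen, bulgy body and a deeper tail fin, whereas dragonfly larvae bite. The tail holds striated muscle around the notochord and spinal cord, and a fin of loose, hydrated connective tissue wrapped in epidermis.

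Each array gives 1 value per probe set, a set of short oligonucleotides designed for a transcript of Xenopus laevis, and it was hybridized here with labelled RNA of another frog. The deposited values are on the log2 scale and centred, so that 0 is the median of the 14 arrays for that probe set, and a difference of 2.32 is 5 fold. The signal level is lost in the centring, so that the labelled tissue could not be checked by whether its markers were bright or dim. The annotation gives 1 gene symbol for 9304 probe sets, several for 195 and none for 5992, and the endings .L and .S tell apart the 2 genomic copies that Xenopus laevis has of many genes, and say nothing of copies in Rana pirica. The labels call the arrays biological replicates, while the methods say that the tails of a treatment group were combined before extraction, so that whether the arrays of a group share 1 pool of RNA is not settled, and a p-value here reflects the scatter of arrays that may be technical. The methods leave out a chip called control 1 after a failed hybridization, while the labels number the Cont arrays 1 and 2, so that whether they were renumbered is not known and replicate numbers are used here only as the labels give them. With 3 arrays against 2, the smallest p that an exact permutation test allows is 0.1. The poly-A control transcript Dap, added to the RNA before labelling, was high on Salam replicates 1 and 2 (4.17 and 3.0) and low on Salam replicate 3 (-2.0). It was high on Cont replicate 1 (3.10) and low on Cont replicate 2 (-0.965), a split that cuts across both groups. Elsewhere it was high on Drago replicates 1 and 2 (4.15 and 3.33) and −Salam replicate 1 (3.28). Low values were on Drago replicate 3 (-1.45), −Salam replicates 2 and 3 (-2.41 and -1.62) and every −Drago array (-1.79, -1.06 and -0.613). Whether Dap marks a batch that goes with the replicate number was not tested.

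No probe set passed the test between Salam and Cont once all 15491 tests were allowed for, which does not show that the groups were alike. By limma over the 14 arrays, 0 probe sets (0%) reached a Benjamini-Hochberg adjusted p under 0.05, the smallest being adjusted p = 0.433. At an unadjusted p under 0.05 the same fit gave 775 probe sets, 5% of those tested, of which 405 (2.61%) were higher and 370 (2.39%) lower in Salam. The median difference over all probe sets was -0.0156, and the median size of a difference was 0.579, smaller than the median SE of 0.86. The Salam mean was above the Cont mean for 7610 probe sets (49.1%). More than 5 fold from Cont were 299 probe sets (1.93%), 146 higher (0.942%) and 153 lower (0.988%). Taken as a ratio of linear means, the split was 211 higher and 145 lower. The count rests on the number of arrays, being 460 to 489 without any 1 Salam array, 850 without Cont replicate 1 and 924 without Cont replicate 2. The largest folds, 13.14 higher and 13.45 lower, belonged to probe sets without a gene symbol. All 3 Salam arrays lay above both Cont arrays for 1574 probe sets (10.2%) and below both for 1544 (9.97%).

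**Figure D1:**
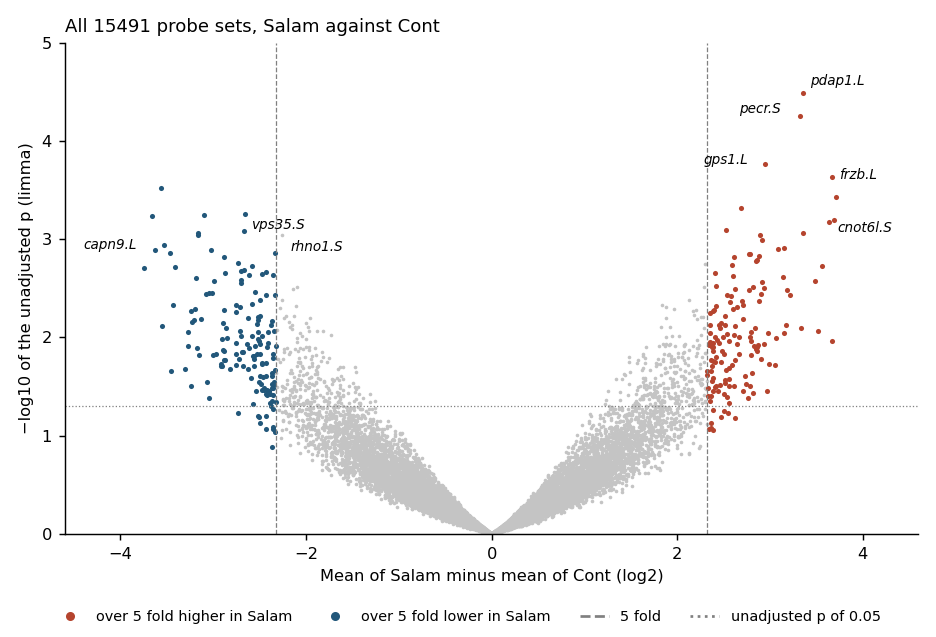
Each point is 1 of the 15491 probe sets, with the mean of the 3 Salam arrays minus the mean of the 2 Cont arrays (log2) across and the −log10 of limma's unadjusted p upward. The 146 red points lie over 5 fold higher and the 153 blue points over 5 fold lower in Salam (dashed lines), and no point has an adjusted p under 0.05.

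Single arrays of Salam and Cont were about as far from each other as arrays of the same group. On the 3 pairs of Salam arrays, 11.9%, 12% and 12.6% of the probe sets lay more than 5 fold apart, and on the 6 pairs of a Salam and a Cont array 11.9% to 13.3% did. The pair of Cont arrays lay inside the range of the mixed pairs. The SD of the difference between a pair of arrays ran from 1.42 to 1.47 on the log2 scale over the 10 pairs.

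**Figure D2:**
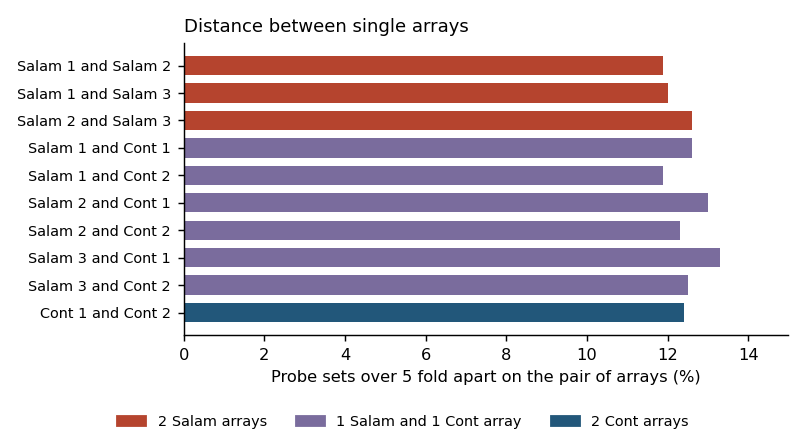
Bars give, for each of the 10 pairs of the 5 arrays, the percentage of probe sets that lay more than 5 fold apart on the pair. The 3 pairs within Salam (11.9% to 12.6%), the 6 pairs of a Salam and a Cont array (11.9% to 13.3%) and the pair within Cont cover the same range.

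The 12 higher and 12 lower probe sets with the smallest p among those with 1 gene name, 1 probe set per gene and clone identifiers of the LOC, MGC and orf kinds left out, are given array by array or by their difference, as a description of the leading values and not as called changes. The 12 higher ones differed from Cont by 2.61 to 3.67 and were over 5 fold each, with adjusted p between 0.433 and 0.728 in limma. The Salam and the Cont arrays did not overlap for any of them, which a ranking on this same difference favours. Of the 146 probe sets over 5 fold higher, 138 did not overlap, and over all probe sets 10.2% were higher without overlap. Leaving out each of the 5 arrays in turn, 10 of the 12 stayed over 5 fold every time.

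pdap1.L, annotated after a phosphoprotein that binds platelet-derived growth factor A, was at 3.31, 3.60 and 3.52 on the Salam arrays and -0.21 and 0.44 on the Cont arrays. The study had selected this probe set on the same arrays and left it as an expressed sequence of unknown identity, so that the name rests on the annotation. The 3 Salam values lay close together, far above both Cont values, and the difference was 3.36 (SE 0.57, adjusted p = 0.433 by limma). pecr.S, which encodes an enzyme of peroxisomes that saturates a double bond in the elongation of fatty acids, stood at 2.38, 1.79 and 2.16 on the Salam arrays and -1.62 and -0.81 on the Cont arrays, a difference of 3.32 (SE 0.59). gps1.L, the first subunit of the COP9 signalosome that regulates cullin ubiquitin ligases, had 1.13, 0.84 and 0.58 on the Salam arrays and -2.60 and -1.59 on the Cont arrays. In gps1.L the Salam arrays lay above the median of all arrays and the Cont arrays well below it, with a difference of 2.94 (SE 0.59).

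frzb.L, a secreted protein that captures Wnt ligands, was at 1.25, 0.25 and 0.80 on the Salam arrays and -4.07 and -1.73 on the Cont arrays. Its Cont arrays were far from each other, so that the difference of 3.67 (SE 0.76) became 2.50 without Cont replicate 1 and 4.84 without Cont replicate 2. cnot6l.S, a deadenylase of the CCR4-NOT complex that shortens the poly-A tails of messenger RNAs, gave 0.78, 0.078 and 1.04 on the Salam arrays and -3.08 and -2.91 on the Cont arrays. Its Cont arrays agreed closely with each other, and the difference was 3.63 (SE 0.84). smc3.L, a subunit of the cohesin ring that holds sister chromatids together, had 2.13, 1.43 and 1.0 on the Salam arrays and -1.30 and -1.49 on the Cont arrays, and here the groups were clearly apart, by 2.92 (SE 0.71).

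The LIM homeobox transcription factor lhx8.L was at 0.087, 0.0027 and -0.65 on the Salam arrays and -3.42 and -2.74 on the Cont arrays. For the splicing kinase clk3.L the values were 0.61, 0.89 and -0.26 on the Salam arrays and -2.25 and -3.09 on the Cont arrays. In both of these the Salam arrays lay around 0, the median of the series, and the Cont arrays were the low ones. The remaining higher probe sets were guca1al.L, annotated after a calcium sensor of photoreceptors, the acetyl-CoA transporter slc33a1.L, nsmce1.L of the SMC5/6 complex that acts in DNA repair, and the zinc transporter slc30a9.S. Their differences from Cont were 2.78 (SE 0.71), 2.61 (SE 0.67), 2.86 (SE 0.74) and 2.85 (SE 0.74).

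The 12 lower probe sets differed from Cont by -2.26 to -3.62, and 11 of them were over 5 fold. None overlapped between the groups, which their ranking likewise favours, and over all probe sets 9.97% were lower without overlap. Only 5 of the 12 stayed over 5 fold whichever array was left out. vps35.S, the core subunit of retromer, which returns membrane proteins from endosomes, was at -1.19, -2.53 and -1.66 on the Salam arrays and 0.77 and 0.97 on the Cont arrays, a difference of -2.67 (SE 0.63). rhno1.S, a partner of the checkpoint clamp that senses damaged DNA, stood at -0.98, -0.96 and -0.55 on the Salam arrays and 1.92 and 0.96 on the Cont arrays. In both genes every Salam value was below 0 and every Cont value above it. The difference of rhno1.S, -2.26 (SE 0.54), was the smallest of the 12 and under 5 fold.

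capn9.L, a calcium-dependent protease of the digestive tract in mammals, had -1.28, 0.27 and -1.15 on the Salam arrays and 2.68 and 3.13 on the Cont arrays, and its difference of -3.62 (SE 0.91) was the largest of the lower probe sets. Among enzymes that charge transfer RNAs, aars1.L for alanine was at -0.36, -1.94 and -0.91 on the Salam arrays and 2.64 and 2.03 on the Cont arrays and kars1.L for lysine at -2.42, -1.78 and -1.79 on the Salam arrays and -0.0018 and 1.35 on the Cont arrays. In aars1.L the Cont arrays were the high ones, while in kars1.L the Salam arrays were the low ones. The differences were -3.41 (SE 0.90) and -2.67 (SE 0.71). dnm1l.S, the GTPase that divides mitochondria, was at 0.16, -1.39 and -0.50 on the Salam arrays and 1.47 and 2.08 on the Cont arrays, a difference of -2.35 (SE 0.64).

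hnrnph1.L, a nuclear RNA-binding protein that guides splicing, stood at -2.46, -3.14 and -1.76 on the Salam arrays and 0.75 and 0.091 on the Cont arrays, with all Salam arrays low and a difference of -2.88 (SE 0.78). chst13.S, which adds sulfate to chondroitin in the matrix, had -1.42, 0.39 and -0.89 on the Salam arrays and 2.41 and 1.72 on the Cont arrays, and cel.2.L, a lipase that splits cholesterol esters, 0.032, -0.045 and -0.058 on the Salam arrays and 2.14 and 2.77 on the Cont arrays. For cel.2.L the Salam arrays lay almost on 0 and close together, and the Cont arrays were high. The differences were -2.70 (SE 0.72) for chst13.S and -2.48 (SE 0.67) for cel.2.L. mr1-like.L, annotated after a presenter of antigen, rabgap1l.L, which switches Rab GTPases off, and gpalpp1.L differed by -2.34 (SE 0.59), -2.58 (SE 0.68) and -2.70 (SE 0.74).

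**Figure D3:**
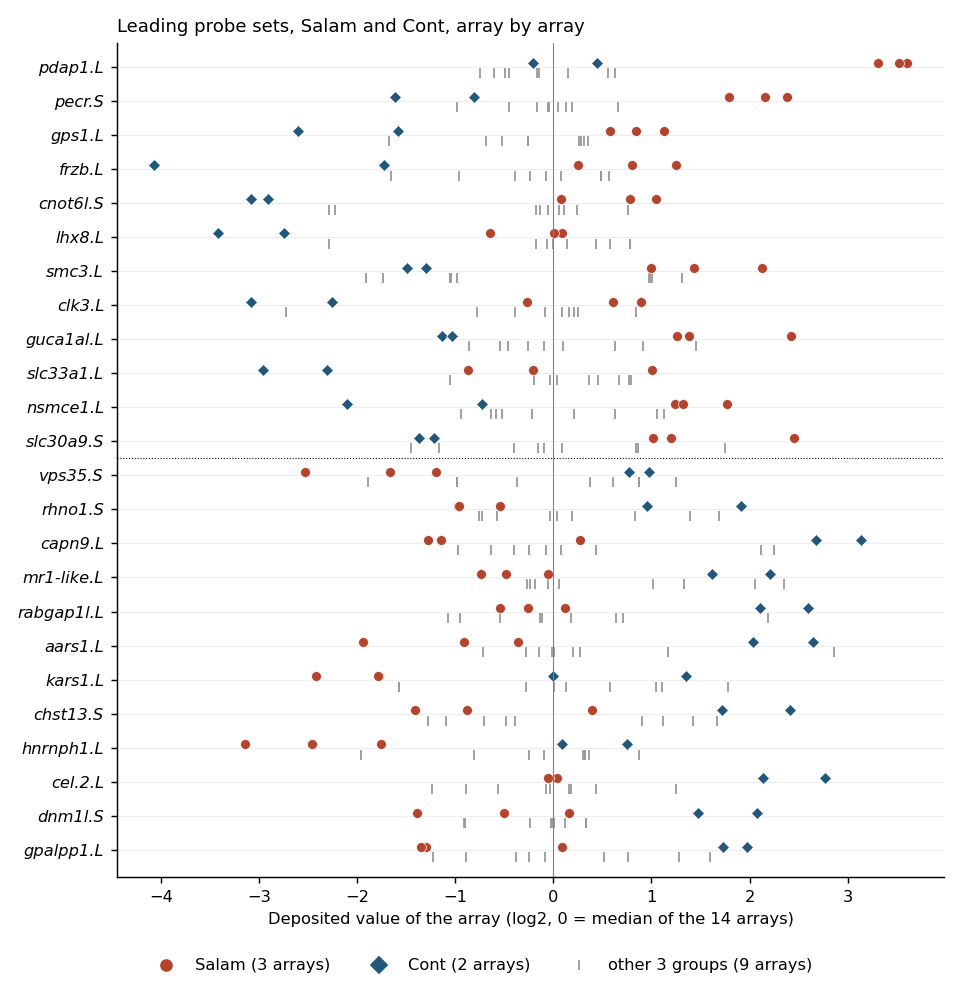
Rows are the 12 higher (top) and 12 lower (bottom) leading probe sets, and the axis is the deposited centred log2 value of a single array. Red circles are the 3 Salam arrays, blue diamonds the 2 Cont arrays and grey ticks the 9 arrays of the other groups. Salam and Cont do not overlap in any row, and in many rows the grey ticks lie with the Salam arrays, while for pdap1.L the 3 Salam arrays stand alone.

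Salam was then set against the other exposed groups as well as Cont. All 3 Salam arrays lay above all 11 other arrays for 40 probe sets (0.258%) and below all of them for 33 (0.213%). Of the 24 leading probe sets 5 did so: pdap1.L, pecr.S, gps1.L and nsmce1.L above, and kars1.L below. The 24 were ranked on Salam against Cont, which already sets Salam apart from the Cont arrays, so that this count is a description. The gap to the nearest other array was 2.68 for pdap1.L, 1.13 for pecr.S, 0.23 for gps1.L, 0.20 for kars1.L and 0.11 for nsmce1.L on the log2 scale. The highest of the 11 other arrays was at 0.63 for pdap1.L.

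Outside the leading probe sets, the 3 with a gene name and the largest gaps were singled out after their values were seen, beside a clone identifier. The gap of ropn1l.L was second to that of pdap1.L, and all 3 gaps exceeded those of gps1.L, kars1.L and nsmce1.L. MGC69466.L, known only by a clone identifier, lay below every other array by 1.13, at a difference of -2.43 from Cont (SE 0.65). ropn1l.L, a protein of the sperm tail and of motile cilia, was at 1.99, 1.97 and 1.88 on the Salam arrays and -1.26 and 0.38 on the Cont arrays. The 3 Salam values lay close together, above every other array by 1.28. rbmx2.L, a splicing factor, was at -2.52, -1.62 and -1.74 on the Salam arrays and 0.0053 and -0.0053 on the Cont arrays, below every other array by 0.72. sh3glb1.S, which bends membranes in autophagy and apoptosis, was at 1.44, 1.45 and 1.49 on the Salam arrays and -2.22 and 0.54 on the Cont arrays, above every other array by 0.61. Its difference from Cont, 2.30 (SE 0.83), was 0.92 without Cont replicate 1. Another probe set of sh3glb1.S went the other way, at -0.41 (SE 0.53), with all Salam arrays below both Cont arrays. Another probe set of rbmx2.L was at -1.50 (SE 0.75), also lower and without overlap.

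Tested directly against dragonfly exposure, 1 probe set passed. pdap1.L was at 3.31, 3.60 and 3.52 on the Salam arrays and -0.61, -0.45 and -0.49 on the Drago arrays. It was higher in Salam by 3.99 (SE 0.51, adjusted p = 0.0203 by limma), the only probe set called (0.00646%), with no overlap between the 6 arrays. The call did not hold without any 1 of the 6 arrays, where the smallest adjusted p ran from 0.0636 to 0.189. At an unadjusted p under 0.05, 885 probe sets (5.71%) differed between Salam and Drago. pecr.S was higher in Salam than in Drago by 2.06 (adjusted p = 0.555) and kars1.L at a difference of -3.30 from Drago (adjusted p = 0.53), neither past limma's test.

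Against tadpoles that had been freed of salamanders for 4 days, 0 probe sets (0%) passed, with 851 (5.49%) at an unadjusted p under 0.05 in limma. pdap1.L came closest, at 3.31, 3.60 and 3.52 on the Salam arrays and 0.15, -0.16 and 0.63 on the −Salam arrays, a difference of 3.27 (adjusted p = 0.193). Differences from Cont in Salam, in Drago and in −Salam all use the same 2 Cont arrays and so are given only side by side. For pdap1.L they were 3.36 in Salam, -0.63 in Drago and 0.086 in −Salam. For pecr.S they were 3.32, 1.26 and 0.94, for vps35.S -2.67, -0.45 and -0.083, and for kars1.L -2.67, 0.64 and -0.73. frzb.L stood at 3.67, 3.23 and 2.77 and lhx8.L at 2.90, 3.75 and 3.26 in the same order of groups. For both, the means of these 3 exposed groups lay well above that of Cont. Other leading probe sets also had shifts shared by the 3 groups. In the same order, gps1.L was at 2.94, 2.23 and 2.19, clk3.L at 3.08, 2.79 and 2.85, and cel.2.L at -2.48, -2.46 and -2.97. Between Salam and Drago, gps1.L differed by only 0.72 (adjusted p = 0.95 by limma). The −Drago arrays, not among these 3 groups, were at -1.89, -0.98 and -0.98 for vps35.S, where −Drago replicate 1 lay among the Salam arrays. They were at -1.58, -1.57 and 0.57 for kars1.L, at 0.56, -0.75 and -0.15 for pdap1.L and at -0.17, 0.045 and 0.13 for pecr.S.

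Many genes are read by more than 1 probe set, which gives a reading of the same gene that the ranking of the leading probe set did not use. How far the other probe sets followed the leading one varied between genes. smc3.L was at 2.92 on its leading probe set and at -1.76 on another. On that other one the values were 1.11, -1.62 and -2.48 on the Salam arrays and 0.17 and 1.35 on the Cont arrays, and the groups overlapped. capn9.L was at -3.62 and 1.23, and pdap1.L at 3.36 beside -0.16 for pdap1.S, which was at 0.50, -0.32 and 0.38 on the Salam arrays and 0.51 and 0.18 on the Cont arrays. kars1.L was at -2.67 beside -0.15 and 0.15 for the 2 probe sets of kars1.S. lhx8.L was at 2.90 and 0.51, and clk3.L at 3.08 and 1.25. The probe sets of chst13 had the same direction, with -2.70 and -1.92 for chst13.S and -1.86 for chst13.L. None of the 3 overlapped between the groups. Over all probe sets, 9.97% were lower and 10.2% higher without overlap. chst13.L was at -2.63, -2.50 and -0.017 on the Salam arrays and 0.15 and 0.14 on the Cont arrays, with Salam replicate 3 close to Cont. The identifiers of the 2 chst13.S probe sets differ only in their ending, so that they may not be separate readings. frzb was 3.67 for frzb.L and 1.66 for frzb.S, and frzb.S was at 0.54, 0.92 and -0.59 on the Salam arrays and -0.74 and -2.0 on the Cont arrays, also without overlap.

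Over all genes, the probe sets of a gene went separate ways. Among 2712 pairs of probe sets with the same symbol, from 1260 genes, the differences between Salam and Cont had a Pearson r of 0.00173 across pairs, and 50.2% of the pairs had the same sign. The pairs share the 5 arrays and genes with many probe sets recur, so that these values are a description. When 1 probe set of a pair was over 5 fold, the other had the same sign in 70 of 133 cases (52.6%), with a median of 0.0719 in that direction, and it was never over 5 fold in the same direction. Between .L and .S copies, 1472 pairs of 1023 genes had r = 0.0269 and the same sign in 49.7%. Within single arrays the centred values of same-symbol pairs had r between -0.0511 and 0.0318 over the 14 arrays. Split into 3 groups of about equal size by the larger residual SD of the pair, a split chosen after the data were seen, the pairs had r = 0.0433 in the least noisy, -0.0443 in the middle and 0.0134 in the noisiest group. The control transcript Dap has 6 probe sets, and on all 6 Salam replicates 1 and 2 and Cont replicate 1 lay above Salam replicate 3 and Cont replicate 2. The arrays were split by the Dap values themselves and Dap is an added transcript, so that this gives no measure of agreement for tail genes. The methods describe the signals of this cross-species hybridization as low, and the part of signal level in the weak agreement was not tested, since the centred values hold no levels.

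**Figure D4:**
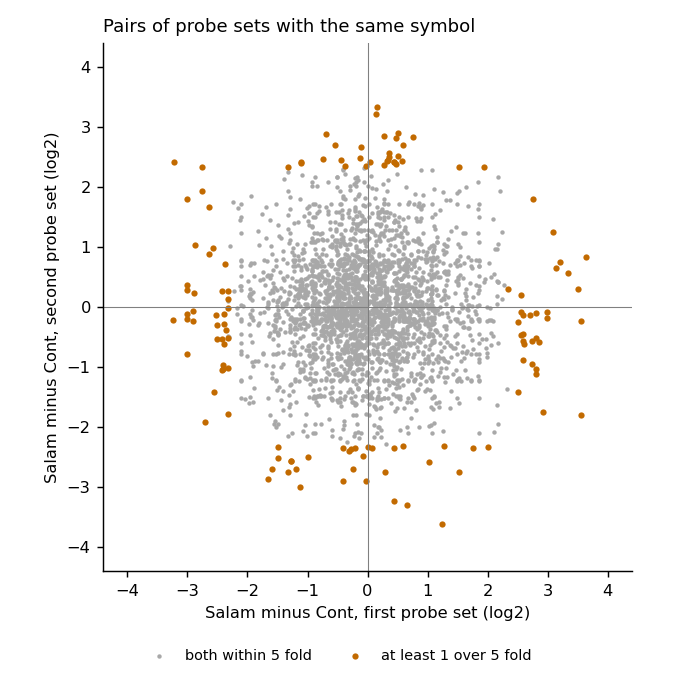
Each point is 1 of the 2712 pairs of probe sets with the same gene symbol, with the difference between Salam and Cont (log2) on the probe set that sorts first by its identifier across and on the other upward. Orange points have at least 1 member over 5 fold, and the cloud shows no slope (r = 0.00173).

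Pairs that were both over 5 fold were few and are named here after their values were seen. bmpr1a, a receptor for bone morphogenetic proteins, was higher on probe sets for both copies. bmpr1a.L had 1.27, 0.56 and 1.27 on the Salam arrays and -2.93 and -0.99 on the Cont arrays, a difference of 2.99 (SE 1.13). bmpr1a.S had -0.36, 1.84 and 1.57 on the Salam arrays and -1.22 and -2.30 on the Cont arrays, a difference of 2.78 (SE 0.79), and in neither did the groups overlap. The other 2 probe sets of bmpr1a.L were at -0.093 and -0.18. tial1, an RNA-binding protein of stress granules, was lower on probe sets for both copies, with -0.87, -1.18 and -1.50 on the Salam arrays and 1.67 and 1.94 on the Cont arrays for tial1.S (a difference of -2.99 (SE 0.83)) and -0.14, -3.23 and -1.46 on the Salam arrays and 0.59 and 1.01 on the Cont arrays for tial1.L (a difference of -2.41 (SE 0.80)). The other 3 probe sets of tial1.L were at -1.04, -0.97 and -0.30. In 2 other genes the probe sets were over 5 fold in opposite directions. ubtf.S, the transcription factor of ribosomal RNA genes, was at -3.23 and 2.42, and csnk1g1.S, a casein kinase of the gamma class, at -2.76 and 2.33. The 2.33 of csnk1g1.S rests on Cont replicate 1 at -4.62, since Cont replicate 2, at -0.021, lay among the Salam arrays, and it was 0.034 without Cont replicate 1.

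The tail is mostly muscle, skin and matrix, and 36 lists of genes, 28 of pathways and 8 of cell type markers, were read for their members. In none of the 36 lists did a member pass limma's test at an adjusted p under 0.05. Counts below are of probe sets at an unadjusted p under 0.05, to be read beside 2.61% higher and 2.39% lower over all probe sets, and medians beside -0.0156. Where counts over 5 fold are given, the shares over all probe sets are 0.942% higher and 0.988% lower. List medians ran from -0.568 for blood vessel markers to 0.469 for fibroblast markers, 17 lying above 0 and 19 below. With each array left out in turn, 14 of the 36 medians kept their sign. In bulk tail, fewer cells of a type and less RNA per cell cannot be told apart.

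**Figure D5:**
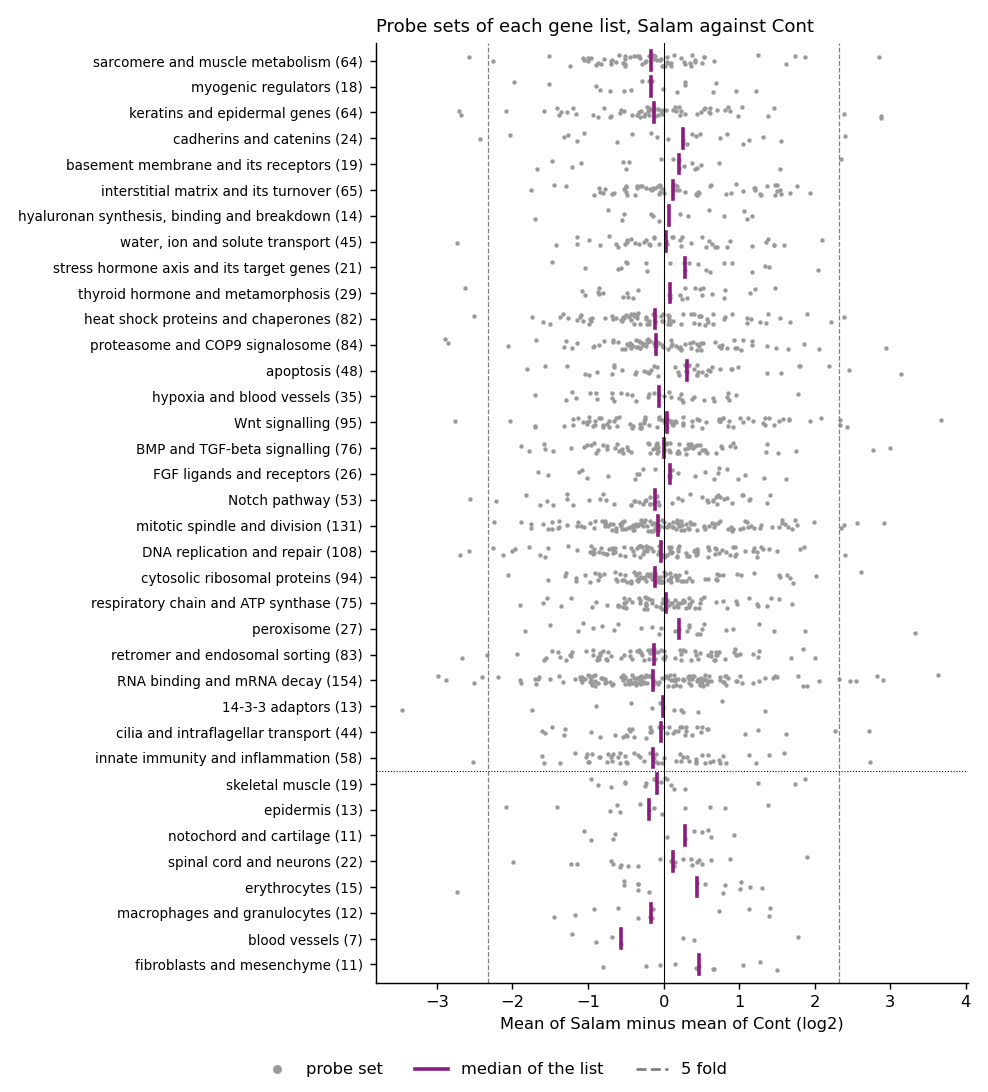
Rows are the 28 pathway lists and, under the dotted line, the 8 marker lists, with the number of probe sets in brackets. Each point is the mean of Salam minus the mean of Cont (log2) for 1 probe set, purple bars are list medians and dashed lines mark 5 fold. Members lie on both sides of 0 in every list, and the medians stay between -0.568 and 0.469.

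Muscle genes lay on both sides of Cont. Of 64 probe sets for the sarcomere and muscle metabolism, 2 were higher and 1 lower at an unadjusted p under 0.05. In this list 24 lay above 0 and 40 below, where 49.1% of all probe sets lay above 0. Its median difference was -0.166, and -0.263 to -0.107 with an array left out. The 19 probe sets of skeletal muscle markers ran from -0.96 for tnnc2.S, troponin C, to 1.88 for acta1.S. Among them mylpf.L, the fast regulatory light chain, was at -0.085 (SE 0.51). The 3 probe sets of the creatine kinase ckm.L were at -0.04, 0.049 and 0.10, and a probe set of the light chain myl1.L at 1.73 (SE 0.98). acta1.S, skeletal actin, was at 1.18, 0.21 and -0.041 on the Salam arrays and -0.77 and -2.08 on the Cont arrays, without overlap. smpx.L, a small muscle protein, was at -2.08, -4.42 and -0.032 on the Salam arrays and 0.33 and 0.45 on the Cont arrays, with Salam replicate 3 close to the Cont arrays. dmd.1.L, dystrophin, which ties the muscle fibre to the matrix, was at -1.37, -3.67 and -1.37 on the Salam arrays and 1.25 and 0.29 on the Cont arrays, a difference of -2.91 (SE 0.99), and is not in the list counted above. Also outside the list, mylc2a, a myosin light chain, had 1 probe set at -0.51, -1.18 and -0.62 on the Salam arrays and 1.76 and 1.35 on the Cont arrays, a difference of -2.33 (SE 0.81), while its other 5 probe sets ran from -0.53 to 1.28. Of the 3 probe sets of the myosin heavy chain myh15.L, 1 was at 2.85 (SE 1.01) and the others at 0.28 and -0.59. The 18 probe sets of myogenic regulators held none at an unadjusted p under 0.05, with a median of -0.169.

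In the epidermis list, claudins of tight junctions lay mostly above Cont and keratins mostly below, with exceptions in each. These families, and those of collagens, metalloproteinases and haemoglobins, were grouped after their values were seen. Of 64 probe sets, 3 were higher and 2 lower at an unadjusted p under 0.05. cldn6.1.L was at 1.48, 1.79 and 1.75 on the Salam arrays and -2.02 and -0.40 on the Cont arrays, and all Salam arrays were clearly the higher ones. cldn1.S was at 2.88 (SE 1.0) on 1 probe set, with 1.45, 0.83 and 0.68 on the Salam arrays and -0.99 and -2.80 on the Cont arrays, and at -0.70 on the other. Over 13 claudin probe sets of 7 genes, 10 were above 0, with a median of 0.402, and 2 were higher and 0 lower without overlap. Of 30 keratin probe sets, 20 were below 0, with a median of -0.194, but 4 were higher and 5 lower without overlap. Over all probe sets, 49.1% were above 0. krt70.S had -0.21, -0.70 and -0.83 on the Salam arrays and 2.70 and 1.55 on the Cont arrays on its leading probe set, and its 4 probe sets were at -2.71, -1.59, -1.19 and -0.24. krt78.6.L ran the other way, at 0.70, 0.64 and 0.63 on the Salam arrays and -2.24 and -1.23 on the Cont arrays. znf750, a zinc finger factor of keratinocyte maturation, was at -2.68 (SE 1.02) for znf750.S, while znf750.L was at -0.26 with single arrays from -1.59 to 2.86. The desmosomal plaque protein desmoplakin was at -2.09 for dsp.S and -1.42 for dsp.L.

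Among adhesion molecules, the cadherin cdh3 was matched here to the C-cadherin of the study. cdh3.L was at 1.19, 1.79 and 0.56 on the Salam arrays and -0.82 and -1.63 on the Cont arrays, a difference of 2.40 (SE 0.73). cdh3.S ran in the opposite direction, at -0.18, 0.91 and -0.47 on the Salam arrays and 1.65 and 1.15 on the Cont arrays. The study reported C-cadherin as lower under salamander exposure. Its printed value goes with cdh3.S, at a fold of -2.49, and not with cdh3.L. Neither copy overlapped between the groups. The cadherin partners ctnnb1, beta-catenin, and ctnna1, alpha-catenin, each had probe sets on both sides of 0: -2.03 for ctnnb1.S, 0.38 and -0.42 for ctnnb1.L, and -1.26 and 0.48 for ctnna1.S.

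Matrix genes had a median of 0.126 over 65 probe sets, 1 being higher and 1 lower at an unadjusted p under 0.05. The fibrillar and type VI collagens that give connective tissue its strength stood above Cont on 6 of 9 probe sets, with a median of 0.469 and values between -0.50 and 1.51, none at an unadjusted p under 0.05. Of 14 probe sets for matrix metalloproteinases, which cut collagen and other matrix proteins, 9 were above 0 with a median of 0.752, again none at an unadjusted p under 0.05. mmp1.S was at 2.92, 0.89 and -0.042 on the Salam arrays and -0.31 and -0.71 on the Cont arrays, and mmp3.L at 0.16, -0.23 and 1.09 on the Salam arrays and -2.66 and -0.53 on the Cont arrays. Neither overlapped between the groups, but in mmp1.S Salam replicate 1 and in mmp3.L Cont replicate 1 stood far from the rest of its group. In the basement membrane list of 19, col4a2.L, a chain of type IV collagen, was at -0.13, 0.74 and 0.66 on the Salam arrays and -1.56 and -2.30 on the Cont arrays, a difference of 2.35 (SE 0.76), while its other probe set was at -0.029. dag1.S, the dystroglycan that binds laminin, was at -1.68 (SE 0.85), and at -0.604 without Salam replicate 1.

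For hyaluronan, the water-binding sugar of the fin, 0 of 14 probe sets reached an unadjusted p under 0.05. Its synthases has1.S and has2.S were at -0.14 and 0.32, its receptor cd44.L at 1.17 (SE 0.74) and the hyaluronidase spam1.L at -1.70 (SE 0.91). Of 45 probe sets for water, ion and solute transport, 2 were higher and 0 lower, atp6v0c.L of the vacuolar proton pump at 2.09 (SE 0.95) and atp1b3.S of the sodium pump at 1.59 (SE 0.74), and the aquaporins aqp2.S, aqp3.L and aqp11.L were at 0.23, 0.56 and 0.12. slc4a1.L, the anion exchanger of red cells, was at -1.67, 0.52 and -4.03 on the Salam arrays and 1.06 and 0.96 on the Cont arrays, while 6 of 8 haemoglobin probe sets were above 0, with a median of 0.672.

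In the Wnt pathway, 7 of 95 probe sets were higher and 1 lower at an unadjusted p under 0.05, and 4 were over 5 fold higher and 1 over 5 fold lower, with a median of 0.0407. The 7 higher ones read 6 genes, since csnk1g1.S supplied 2 of them and the lower one too. Besides frzb.L, a Wnt antagonist, they included prickle1.L of the planar polarity branch at 1.86, 0.42 and 1.37 on the Salam arrays and -2.05 and -0.37 on the Cont arrays, and the receptor fzd7.L at 2.30, 1.90 and 0.72 on the Salam arrays and -0.29 and -0.58 on the Cont arrays. Both stood above Cont on all Salam arrays, but the other 4 probe sets of fzd7.L were at -0.055 to -0.93. tcf7l2.L, the nuclear partner of beta-catenin, was at 1.66 (SE 0.58), and znrf3.S, a ubiquitin ligase that removes Wnt receptors, at 0.68, 0.059 and -0.059 on the Salam arrays and -0.72 and -3.50 on the Cont arrays, where Cont replicate 2 was far below the rest.

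BMP and TGF-beta genes had 3 higher and 1 lower of 76, namely both copies of bmpr1a and the procollagen protease bmp1.L at 1.75 (SE 0.76), and the effector smad3.L at -1.89 (SE 0.84). The BMP antagonist grem1.L was at 0.35, 0.083 and 0.50 on the Salam arrays and -0.29 and -0.20 on the Cont arrays, apart but by only 0.55 (SE 0.53). FGF ligands and receptors had 0 of 26. The Salam mean of fgf8.L, a growth factor of the tail bud, was below that of Cont on each of 3 probe sets, at -1.66, -1.52 and -0.27. On the probe set at -1.52 (SE 0.73) the groups overlapped, at 1.03, -1.51 and -1.09 on the Salam arrays and 1.23 and 0.78 on the Cont arrays. Among Notch genes 0 were higher and 1 lower of 53, hes5.5.S, a repressor that Notch induces, at -2.01, -0.86 and -1.02 on the Salam arrays and -0.21 and 2.76 on the Cont arrays. Its relatives hes5.3.L and hes5.10.L were at 1.05 (SE 0.59) and -1.47 (SE 0.86), in opposite directions.

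Genes of DNA replication and repair had more members lower than higher at an unadjusted p under 0.05, 8 against 2 of 108, although their median was -0.0355. Apart from rhno1.S, the lower ones included prkdc.L, the kinase of DNA end joining, at -3.33, -2.51 and -1.0 on the Salam arrays and 0.53 and 0.31 on the Cont arrays, and the checkpoint clamp subunit hus1.L at -0.48, -0.18 and -1.30 on the Salam arrays and 0.68 and 1.95 on the Cont arrays. In both the groups did not overlap. wdhd1.L and orc1.L, which act at replication origins, were at -2.58 (SE 0.87) and -2.01 (SE 0.84), the helicase mcm8.L at -2.13 (SE 0.89), the excision nuclease subunit ercc1.L at -1.54 (SE 0.64) and the clamp loader rfc3.L at -1.64 (SE 0.75). The 2 higher ones were subunits of the replicative helicase, mcm7.L at 2.40 (SE 0.90) and mcm6.2.S at 1.81 (SE 0.80). In mcm6.2.S the groups overlapped, since only Cont replicate 1 was low, at -3.28. Counted as 1 value per gene, the median of the list was 0.0418.

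Mitosis genes had 5 higher and 2 lower of 131, with a median of -0.0694. cdc20.L, an activator of the anaphase-promoting complex, was at 0.072, 0.96 and 0.84 on the Salam arrays and -1.98 and -1.54 on the Cont arrays, and stag2.L, another cohesin subunit, at 2.01, 1.98 and 1.79 on the Salam arrays and 0.86 and -0.99 on the Cont arrays. Both were apart, by 2.38 (SE 0.82) and 1.99 (SE 0.90). For the spindle factor tpx2.L and for ccna2.L, cyclin A, the groups overlapped, because Salam replicate 1 of tpx2.L (-2.20) and Salam replicate 3 of ccna2.L (0.23) lay with the Cont arrays. The kinetochore genes cenpm.L and cenpn.L were at -2.25 (SE 0.83) and 1.77 (SE 0.67).

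RNA-binding and mRNA decay genes had 6 higher and 5 lower of 154, 5 over 5 fold higher and 4 over 5 fold lower, with a median of -0.14. hnrnpa3.L, which packages nuclear RNA, was at 0.12, 0.38 and 1.63 on the Salam arrays and -2.75 and -1.64 on the Cont arrays, and celf3.L, a splicing regulator of neurons, at 3.59, 1.82 and 0.48 on the Salam arrays and -0.30 and -0.70 on the Cont arrays. The groups were apart in both, although celf3.S stood at -0.38. upf2.S of nonsense-mediated decay and exosc1.L of the RNA exosome were at -1.89 (SE 0.77) and -1.65 (SE 0.64). The cold-inducible RNA-binding protein was at -2.52 and -0.53 for cirbp.L and at -1.33 and -0.12 for cirbp.S, 4 probe sets below 0, none at an unadjusted p under 0.05. The -2.52 of cirbp.L rests on Salam replicate 1, at -4.50. Ribosomal proteins had 3 higher and 1 lower of 94 and a median of -0.107, and the respiratory chain 0 higher and 2 lower of 75 with a median of 0.0319.

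Protein turnover went both ways. Of 84 probe sets for the proteasome and COP9 signalosome, 4 were higher and 4 lower. cops2.L, a further COP9 subunit, was at -0.041, -1.21 and -0.33 on the Salam arrays and 3.04 and 1.69 on the Cont arrays, opposite to gps1.L, and its other 3 probe sets were at 0.24, -0.025 and -0.41. The proteasomal deubiquitinase usp14.S was at -0.095, -4.39 and -3.09 on the Salam arrays and 0.17 and 0.48 on the Cont arrays, with Salam replicate 1 near the Cont arrays, and the lid subunit psmd12.S at -0.22, -0.81 and -0.60 on the Salam arrays and 1.39 and 1.65 on the Cont arrays. psma6.S of the core was at 1.48 (SE 0.55) and a probe set of psma5.S, of the same ring, at -1.69 (SE 0.75), with the other 2 of psma5.S at 0.50 and 0.21. Heat shock proteins had 3 higher and 0 lower of 82, the constitutive hspa8.L at 0.40, -0.40 and -0.12 on the Salam arrays and -1.53 and -2.98 on the Cont arrays, hspa4.S at 0.0011, 1.42 and 1.48 on the Salam arrays and -1.64 and -0.23 on the Cont arrays and dnajb11.L of the endoplasmic reticulum at 2.39 (SE 0.89), yet the list's median was -0.118 and 47 of its 82 probe sets lay below 0.

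Apoptosis genes had 3 higher and 0 lower of 48, with 29 above 0 and a median of 0.308, which was 0.0722 to 0.253 with an array left out. api5.S, an inhibitor of apoptosis, was at 1.85, 1.58 and 1.07 on the Salam arrays and -1.49 and -1.78 on the Cont arrays, a difference of 3.14 (SE 0.86), with its other probe set at 0.64 and api5.L at 0.90. xiap.L, which blocks caspases, was at 0.21, -0.95 and 0.45 on the Salam arrays and -2.88 and -2.21 on the Cont arrays, and the caspase casp10.S at -0.062, 2.25 and 0.062 on the Salam arrays and -1.24 and -1.63 on the Cont arrays. The groups were apart in all 3, though only Salam replicate 2 of casp10.S was far from 0. casp9.S was at -0.87 (SE 0.97).

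In the stress hormone axis, 0 were higher and 1 lower of 21, cyp17a1.L, an enzyme of steroid synthesis, at -0.68, -0.54 and -0.20 on the Salam arrays and 1.37 and 0.63 on the Cont arrays, while its other probe set was at 1.18. The glucocorticoid receptor was at 2.05 and -0.23 for nr3c1.S and 1.34 for nr3c1.L, and the 2.05 rests on Salam replicate 3, at 3.57. Thyroid hormone and metamorphosis genes had 0 higher and 1 lower of 29, thdl18.S, at -1.86, 0.35 and -2.92 on the Salam arrays and 0.72 and 1.58 on the Cont arrays. The thyroid hormone receptor thra.L was at -0.47 (SE 0.92) and the deiodinases dio2.L at 0.80 and -0.33 and dio3.L at 0.51. Hypoxia and vessel genes had 1 higher and 0 lower of 35, and hif1a.L was at 0.21 and 0.077.

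In the retromer and endosome list, 1 was higher and 3 lower of 83, and chmp4b.L, a subunit of the ESCRT machinery that pinches membranes, was among both, at -1.93 (SE 0.86) on 1 probe set and 1.84 (SE 0.86) on another. ap3b1.L, an adaptor of vesicle transport to lysosomes, was at 0.13, -0.82 and -0.84 on the Salam arrays and 2.21 and 1.42 on the Cont arrays. Of 27 peroxisome probe sets, pecr.S alone was at an unadjusted p under 0.05. Of 13 for 14-3-3 adaptors, ywhab.L was at -2.35, -2.48 and 0.62 on the Salam arrays and 1.53 and 2.57 on the Cont arrays, with Salam replicate 3 nearer to Cont than to the other Salam arrays, and the 3 probe sets of ywhab.S were at -0.44, -0.15 and 0.26. ywhaz.L was at 1.35 (SE 0.55). In the cilia list, 2 were higher and 0 lower of 44, with ttc30a.S of intraflagellar transport at 0.88, -0.079 and 0.80 on the Salam arrays and -2.75 and -1.62 on the Cont arrays and the axonemal dynein dnah9.S at 2.27 (SE 1.04). Immune genes had 1 higher and 1 lower of 58, hmgb2.S, a chromatin protein and alarm signal, at 0.90, 1.0 and 2.48 on the Salam arrays and -1.43 and -1.12 on the Cont arrays and the interferon regulatory factor irf1.L at -0.39, 1.0 and 0.51 on the Salam arrays and 2.74 and 3.04 on the Cont arrays, both without overlap.

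No cell type marker passed limma's test at an adjusted p under 0.05. At an unadjusted p under 0.05 there were 1 higher and 0 lower of 19 for skeletal muscle, 0 of 13 for epidermis, 0 of 11 for notochord and cartilage, and 1 higher and 1 lower of 22 for spinal cord and neurons. For erythrocytes it was 0 of 15, for macrophages and granulocytes 0 of 12, for blood vessels 1 higher and 0 lower of 7, and for fibroblasts 0 of 11. Their medians were -0.0848 for skeletal muscle, -0.199 for epidermis, 0.279 for notochord and cartilage, 0.118 for neurons, 0.445 for erythrocytes, -0.166 for macrophages and granulocytes, -0.568 for vessels and 0.469 for fibroblasts. Without Salam replicate 1 the vessel median was 0.384, and without Cont replicate 2 that of notochord and cartilage was -0.317.

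Of the genes that the study's text or tables name for salamander exposure, 27 matched by exact symbol, on 56 probe sets. None passed limma's test, 12 were at an unadjusted p under 0.05 and 13 over 5 fold, and 30 lay above and 26 below 0. Over all probe sets, 5% were at an unadjusted p under 0.05 and 1.93% over 5 fold. The study chose these genes on the same arrays, so that the counts are a description. The match was not complete, and with 5 further genes, dmd.1, hes5.5, rhno1, bcorl1 and pdap1, added after the data were seen, 16 of 64 probe sets were at an unadjusted p under 0.05, 16 were over 5 fold, and 31 lay above and 33 below 0. bcorl1.L, a transcriptional corepressor, was at -0.67, -0.68 and -0.55 on the Salam arrays and -0.29 and -0.16 on the Cont arrays, a difference of -0.41 (SE 0.50). tcf12.L, a basic helix-loop-helix factor, was at 1.0, 1.89 and 1.47 on the Salam arrays and -0.12 and -2.58 on the Cont arrays, with Cont replicate 2 far below Cont replicate 1. ppm1b.S, a protein phosphatase, was at 0.0039, 3.61 and 2.08 on the Salam arrays and -1.73 and -1.60 on the Cont arrays on 1 probe set, a difference of 3.56 (SE 0.94), and at -1.80 and -0.24 on the others. elavl1.S, which stabilizes messenger RNAs, was at 0.47 (SE 0.55), tox4.S, a chromatin protein, at 1.79 (SE 1.12), and the syndecan sdc2, a heparan sulfate proteoglycan, at -0.50 and -0.002 on the probe sets of sdc2.L and 0.0096 on that of sdc2.S. cetn3, centrin of the centrosome, was at 0.28 for cetn3.L and 0.30 for cetn3.S, and dpm1, of mannose donor synthesis, at -0.38 for dpm1.L and 0.074 for dpm1.S, with the groups overlapping in all 4. The fold that the study printed for dpm1 matches neither value, so that the probe set it listed may not be among these.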

How the data were processed

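RNA from tail tissue of Rana pirica was hybridized to Xenopus laevis oligonucleotide arrays, 1 value per probe set and array. The deposited values are log2 signals that the authors made with MAS5 and GCOS, per the submitters' processing notes, and centred for each probe set on the median of the 14 arrays, per the methods; linear signals and detection calls were not used here. Arrays were grouped by their titles. Of 15611 probe sets, 120 for control transcripts were left out, and no filter was set on the rest.

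Groups were compared with limma 3.58.1 in R 4.3.3, fitted over all 14 arrays of 5 groups with moderated variances (9 residual and 5.53 prior degrees of freedom), and p-values were adjusted by Benjamini-Hochberg over 15491 probe sets. SE is that of the fit. The fit was tested on simulated data. Fold is 2 to the difference of mean log2 values. Figures were drawn with matplotlib 3.10.9. Depth has no counterpart on arrays, and the number of arrays limits the precision.

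Named were the 12 higher and 12 lower probe sets with the smallest p among those with 1 gene symbol that is no LOC, MGC or orf identifier, 1 per gene, the 2 with the smallest p of each pathway list, genes the study names for salamander exposure, and the other probe sets of these genes. Any further gene was picked with its values in view. The members and lists were chosen with earlier results of these data known. Replicate numbers were not used to pair the arrays in the main fit, and whether they mark pairs is not known. Alternatives were other normalizations, the 5 arrays alone, an ordinary 2-group test, a replicate block, the poly-A controls as a covariate, other fold limits and leaving out each array.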

Additional observations from a re-analysis of the deposited data

Results flagged for a closer look

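For pdap1.L, annotated after a protein that binds platelet-derived growth factor A, the arrays of salamander exposure differed from those of dragonfly exposure with all arrays in the fit. The difference Salam minus Cont was 3.36 and Drago minus Cont was -0.63 on the log2 scale, and the difference between them, which is Salam minus Drago, was 3.99 (SE 0.51, adjusted p = 0.0203 by limma over all probe sets). The call was lost with the replicate number as a block (smallest adjusted p = 0.104 by limma) and without any 1 of the 6 arrays (smallest adjusted p from 0.0636 to 0.189). All 3 Salam arrays were higher than all 3 Drago arrays. Whether the arrays of a group share 1 pool of RNA is not settled, so that the adjusted p may reflect technical scatter. Per the paper, salamanders bit some tadpoles and killed a few, while dragonfly larvae were caged and harmed none, and the part of injury was not tested. The other probe set of the gene, pdap1.S, was at -0.16 for Salam minus Cont.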

How the results depend on the processing

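The count of 0 probe sets between Salam and Cont at an adjusted p under 0.05 held under every alternative, with a smallest adjusted p of 0.0892 in the ordinary 2-group test on the 5 arrays, which has 3 residual degrees of freedom, and of 0.345 to 0.975 by limma without 1 array. Unadjusted counts ran from 757 to 862, against 775. With the replicate number as a block, 783 probe sets had an unadjusted p under 0.05 and the smallest adjusted p was 0.75. Deviations of same-numbered Salam and Cont arrays had r = 0.00901 and -0.00045. The deviations of the Cont arrays mirror each other and their numbers may have changed, so that this check cannot tell whether the numbers pair the arrays. In Salam minus Drago the call of pdap1.L was lost with the block (0 called, smallest adjusted p = 0.104 by limma) and without any 1 of the 6 arrays (0 called each time), and it held under quantile normalization and median centring (1 called each).

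Over 5 fold, the count of 299 became 1464 at a limit of 3 fold (725 higher, 739 lower) and 22 at 10 fold (12 higher, 10 lower). Without 1 array it ran from 460 to 924, with 219 to 478 higher and 239 to 446 lower. Non-overlapping probe sets, 3118 in all, numbered 5117 to 7887 without 1 array, where fewer arrays have to be apart.

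Of 133 named probe sets, 33 had differences on both sides of 0 as each array was left out in turn. Among the 121 named for their rank, list or mention by the study, the sign of 11 reversed by more than 1 SE, and the cause was not tested. The lowest and highest values with 1 array left out were -2.92 and 0.255 for cirbp.S, -2.73 and 0.197 as well as -0.645 and 1.24 for the probe sets of ctnna1.S, and -0.646 and 2.44 for api5.L. They were -0.906 and 0.367 for ywhab.S, -1.81 and 0.969 for ctnnb1.L, -1.84 and 1.09 for dpm1.L, and -0.858 and 1.42 for cetn3.L. For ppm1b.S they were -1.21 and 0.731, for znf750.L -2.03 and 1.51, and for sdc2.L -1.24 and 1.23. The correlation over same-symbol pairs of probe sets, 0.00173, was -0.00588 to 0.0138 without 1 array, an alternative added after the data were seen.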
